A study of Mus musculus with 34 samples.

Results

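The comparison described here sets cultured mouse small cell lung cancer (SCLC) cells exposed to bomedemstat (BOM) for 10 d against the same cells kept in the solvent DMSO for 10 d. It was taken as the BOM and DMSO libraries of the line RP-48OVA-LLO190 that received no interferon gamma (IFNg), which are 5 of the 34 samples of the study: 2 BOM and 3 DMSO libraries. Both groups carry whatever modification the line's name denotes, and no genotype or BOM dose is given in the labels. The study also holds 5 libraries of the same line with IFNg for the last 48 h (2 BOM, 3 DMSO), the line RP-48 after 96 h of BOM or DMSO (1 library each), other cultured lines and flank tumors. The stated question is which genes change on exposure to the drug.

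Bomedemstat inhibits LSD1, the product of Kdm1a, a demethylase that removes methyl groups from lysine 4 of histone H3. LSD1 works with CoREST scaffold proteins and histone deacetylases, and it is recruited to DNA by repressors of the SNAG family such as GFI1 and INSM1, so loss of its activity is best known for releasing repressed genes. SCLC is a neuroendocrine tumor whose cells express neuronal and secretory granule genes, and can shift towards non-neuroendocrine states with mesenchymal traits.

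All 5 libraries come from 1 line. The labels do not say whether the libraries were separate cultures, so the p-values measure the spread between these libraries, which may be technical. Library totals were 5896627 to 7163611 counts, and 15230 of 30351 genes had enough counts to be tested with edgeR's quasi-likelihood test, fitted together with the 5 IFNg libraries. Neuroendocrine markers were present in both groups: all 23 genes of that list had counts, and their summed level was 5078 to 5437 CPM (counts relative to the library's total, scaled by TMM) with DMSO and 5603 to 6159 CPM with BOM. Of 15 macrophage and myeloid markers 7 had no count in any of the 5 libraries (Adgre1, Tyrobp, Itgam, C1qa, C1qb, C1qc and Lyz2), and the summed level was 7.78 to 15.9 CPM with DMSO and 10.7 to 13.8 CPM with BOM. DMSO replicate 1 stood apart from the other DMSO libraries: its counts differed from theirs with chi-square values of 6.41 and 9.45 per degree of freedom, against 2.31 between replicates 2 and 3. The value was 4.44 between the 2 BOM libraries, and 4.75 to 7.5 between libraries of the same group with IFNg.  The long noncoding RNA Gm26917 took 11.9% to 15.8% of the counts with DMSO and 8.36% and 9.85% with BOM.

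At an adjusted p under 0.05, 20.3% of the genes tested were called: 12.1% were higher with BOM and 8.25% were lower. Rises were larger than falls, since 5.67% of the genes tested rose at least 2-fold (863 genes) and 2.06% fell at least 2-fold (313 genes). These shares are the background for each gene list below. With library size as the only scaling, 70.8% of the calls were higher, against 59.4% with TMM scaling, and the median over all genes moved from -0.01 to 0.05. A list is described by how many of its tested members were called and by the median log2 fold change, BOM minus DMSO, of its tested members. Calls were also counted in 10 further fits that each left out 1 of the 10 libraries; 964 of the 1837 higher and 417 of the 1257 lower genes were called in every one of these fits. List counts of 3 or fewer moved by up to 3 genes in these fits.

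**Figure D1:**
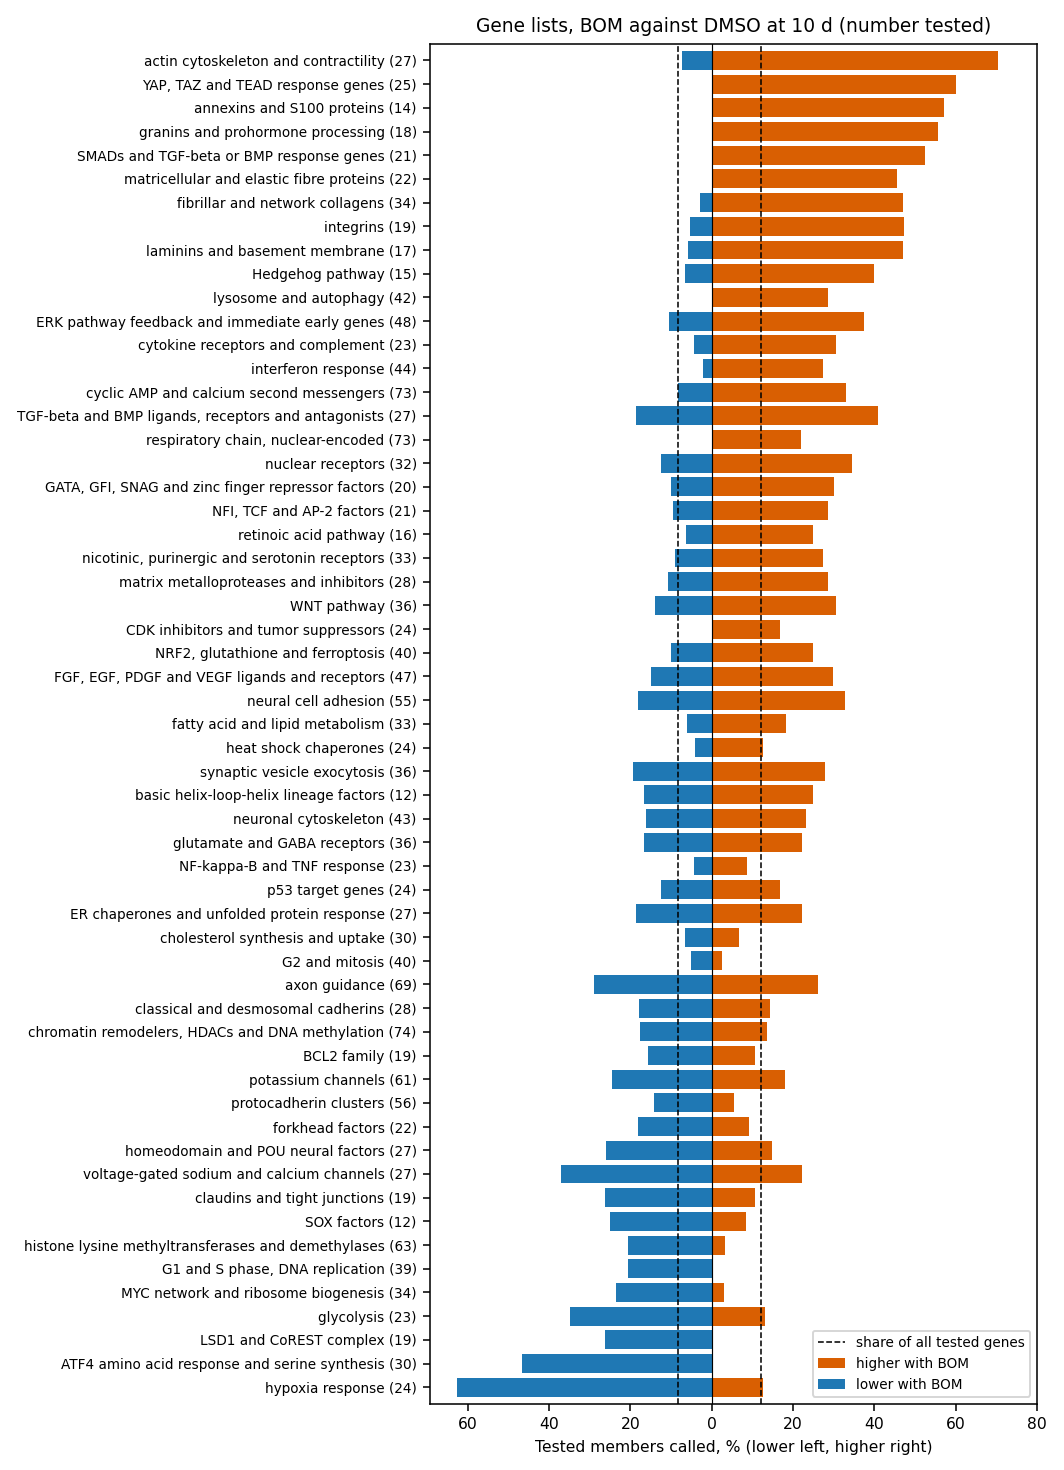
Share of the tested members of each gene list (number tested in brackets) that was called higher (orange, to the right) or lower (blue, to the left) with BOM at 10 d, in percent; dashed lines mark the shares over all tested genes, 12.1% and 8.25%. Actin, YAP and TEAD, annexin, granin, SMAD response and matrix lists lie at the top, hypoxia and amino acid response lists at the bottom. Axon guidance and ion channel lists extend to both sides.

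Among genes of the extracellular matrix, calls were mainly rises. Of 34 collagen genes tested 16 were higher and 1, Col28a1, was lower, with a median log2 fold change of 0.81. Type VI collagen, which forms beaded filaments around cells, changed most. Col6a1 (chr10:76708792-76726168, minus strand) had 36.5, 38.0 and 38.1 CPM in the DMSO libraries and 944 and 758 CPM in the BOM libraries, a 22.7-fold difference (log2 fold change 4.50 ± 0.13 SE, adjusted p = 9.65e-13). Both BOM libraries lay far above all 3 DMSO libraries. Its partner chain Col6a2, a neighbour on chromosome 10, went from 14.7, 19.3 and 15.6 CPM to 375 and 334 CPM (4.43 ± 0.19, adjusted p = 3.17e-11). Per kilobase of gene length, Col6a1 went from 8.58 to 194 RPKM and became the most abundant collagen tested. The basement membrane chain Col4a1, with 19.3 RPKM in DMSO, rose less (log2 fold change 0.55 ± 0.11, adjusted p = 0.00143). Cartilage collagen Col2a1 was low with DMSO, at 1.94, 2.35 and 2.46 CPM, and had 37.9 and 39.8 CPM with BOM (4.11 ± 0.38). Col1a1, a fibroblast collagen, was less certain: it had 0.417, 2.35 and 2.63 CPM with DMSO and 3.72 and 19.97 CPM with BOM, and its adjusted p of 0.00281 reached 0.34 when 1 library was left out. Calls in all 10 leave-one-out fits were kept by 10 of the 16 higher collagens.

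The Col6a1 promoter is shown because this gene had the lowest p-value of the comparison. The 250 bases before its RefSeq start (GRCm38.p6, chr10:76726045-76726294, minus strand), 5′ to 3′, hold 1 match to the AP-1 letters TGANTCA, in capitals, 90 bases before the start:
Col6a1: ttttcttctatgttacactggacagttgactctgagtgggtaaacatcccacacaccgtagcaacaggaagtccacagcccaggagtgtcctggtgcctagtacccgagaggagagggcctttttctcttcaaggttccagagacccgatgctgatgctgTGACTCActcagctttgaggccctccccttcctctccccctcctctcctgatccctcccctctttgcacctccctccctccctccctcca
The same letters, which read alike on both strands, occur in this window in 6.75% of the 32851 promoters of the RefSeq table. The gene coordinates given above, from GENCODE, begin on this strand at 76726168. Part of the Col6a1 window, with the match, therefore lies inside the gene as annotated there. A match describes the sequence and is not a site.

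Other matrix families moved the same way. Among laminins and basement membrane proteins 8 of 17 were higher and 1 lower (median 0.75), but only 5 were higher without BOM replicate 1. Sparc, a collagen-binding matricellular protein, had 3.75, 6.03 and 5.79 CPM with DMSO and 54.7 and 60.8 CPM with BOM (3.49 ± 0.28, adjusted p = 7.62e-08). Hspg2, the core protein of perlecan, rose from 11.5, 14.1 and 8.95 CPM to 36.9 and 51.8 CPM (1.94 ± 0.25), while fibulin 1 (Fbln1) fell from 99.6, 100 and 101 CPM to 55.6 and 65.0 CPM (log2 fold change -0.73 ± 0.10). Of 22 matricellular and elastic fibre genes 10 were higher, all of them at least 2-fold, and 0 were lower (median 1.32). Thbs1, which encodes thrombospondin 1, had 4.31 CPM in DMSO replicate 1, 21.8 and 20.7 CPM in the other DMSO libraries, and 148 and 230 CPM with BOM (3.64 ± 0.43). DMSO replicate 1 was thus the lowest library. Over the list it was lowest for 12 of 22 genes, and for 21 of 34 collagens, against 37.4% of all genes tested; the part of this in the counts was not tested, and 11 to 17 collagens were higher over the leave-one-out fits. Fibronectin (Fn1) also rose, with 219, 224 and 224 CPM in DMSO and 437 and 501 CPM in BOM libraries (1.08 ± 0.21, adjusted p = 0.000955).

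Matrix receptors and remodelling enzymes followed. Integrins, the transmembrane receptors for matrix, were higher for 9 of 19 members and lower for 1 (median 0.51). Itga6, a laminin receptor subunit, rose from 79.2, 75.6 and 83.9 CPM to 240 and 262 CPM (1.66 ± 0.17, adjusted p = 1.32e-06), and the collagen receptor subunit Itga1 rose by 1.72 ± 0.22 on the log2 scale. Itga3 was the lower member (-0.30 ± 0.10). Among 28 proteases and inhibitors 8 were higher and 3 lower; without DMSO replicate 3 only 1 was lower. The inhibitor Timp2 (18.6, 20.3 and 17.6 CPM, then 109 and 137 CPM with BOM; 2.704 ± 0.15) and the gelatinase Mmp2 (3.33, 3.86 and 3.86 CPM, then 27.7 and 19.7 CPM; 2.69 ± 0.29) rose by similar factors.

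The actin cytoskeleton list had the largest share of rises: 19 of 27 members were higher and 2 lower (Rdx and Myh10), with a median of 0.63. Without BOM replicate 2 there were 12 higher members, and these 12 were called in every leave-one-out fit. Myosin regulators were among them. Mylk, the kinase of myosin light chain, had 3.89, 4.36 and 6.67 CPM with DMSO and 68.5 and 48.1 CPM with BOM (3.57 ± 0.25, adjusted p = 1.51e-08). The light chain Myl9 had 1.53, 5.03 and 3.16 CPM with DMSO and 35.5 and 32.6 CPM with BOM (3.42 ± 0.29). The crosslinker Actn1 rose from 49.9, 57.5 and 60.6 CPM to 142 and 144.8 CPM (1.36 ± 0.16). Cytoplasmic beta actin (Actb), which is not in the list, rose from 1681, 1856 and 1751 CPM to 2461 and 2545 CPM (0.51 ± 0.09, adjusted p = 0.000798). Smooth muscle actin, Acta2, was called (2.495 ± 0.60, adjusted p = 0.006) but lost its call in at least 1 leave-one-out fit, where the adjusted p reached 0.11. The groups did not overlap for any of these 5 called genes, which the call itself makes likely. Vimentin (Vim), an intermediate filament of mesenchymal cells, had 3.75, 15.3 and 14.4 CPM with DMSO and 70.5 and 83.6 CPM with BOM (2.83 ± 0.34). Annexins and S100 proteins, calcium-dependent membrane adaptors, were higher for 8 of 14 members and lower for 0 (median 0.82); Anxa8 was nearly silent with DMSO (0.139, 0 and 0.176 CPM) and had 2.17 and 3.45 CPM with BOM.

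Fibroblast markers have to be read beside these lists. Of 10 tested fibroblast markers 7 were higher and 1 lower, and 4 were higher without BOM replicate 2; none of the 13 in the table lacked counts. Their summed level was 120 to 135 CPM with DMSO and 139 to 171 CPM with BOM. Most of the DMSO sum came from Fbln1, the lower marker (log2 fold change -0.73, CPM values above), so the sum understates the rise of the higher markers. The summed level of 15 endothelial markers was 40.9 to 50.6 CPM with DMSO and 70.3 to 86.6 CPM with BOM. Whether a few cells of another type had a part in these rises was not tested. Within a bulk sample, more cells of a type and more RNA per cell cannot be told apart.

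Cell junction genes did not follow the matrix. Classical and desmosomal cadherins were higher for 4 of 28 and lower for 5 (median 0.02); without BOM replicate 2 only 2 were higher, and 3 were lower when BOM replicate 1, DMSO replicate 2 or DMSO replicate 3 was dropped. Cdh11, a cadherin of mesenchymal and neural cells, fell from 71.4, 73.2 and 71.8 CPM to 17.3 and 22.4 CPM (-1.86 ± 0.16, adjusted p = 1.38e-07). Of 19 claudin and tight junction genes 2 were higher and 5 lower, though only 1 was lower once BOM replicate 1 was dropped, and 2 once DMSO replicate 2 or BOM replicate 2 was. Occludin (Ocln) fell from 5.14, 11.4 and 8.95 CPM to 2.32 and 1.65 CPM (-2.07 ± 0.39). The epithelial adhesion gene Epcam went from 79.5, 83.8 and 79.0 CPM to 59.0 and 53.9 CPM (-0.51 ± 0.11, adjusted p = 0.00253, up to 0.056 when 1 library was left out), and the epithelial cadherin Cdh1 did not pass the test (-0.69 ± 0.24, adjusted p = 0.0576). Zeb1 and Zeb2, repressors of epithelial genes, did not pass it either (0.14 ± 0.09 and -0.16 ± 0.19).

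YAP and TAZ are coactivators of the TEAD transcription factors, and are controlled by the Hippo pathway and by tension on the cytoskeleton. The list of their response genes also holds pathway members, such as the TAZ gene Wwtr1 and Amotl1. Of its 25 tested members 15 were higher and 0 lower (median 1.23), and 13 of the 15 were called in every leave-one-out fit. TAZ itself, encoded by Wwtr1, had 0.833, 2.18 and 0.351 CPM with DMSO and 6.81 and 10.2 CPM with BOM (2.91 ± 0.55, adjusted p = 0.000886). Yap1 had too few counts to be tested, 3 over the DMSO libraries and 14 over the BOM libraries. Tead1, the DNA-binding partner, was already well expressed and rose from 343, 335 and 323 CPM to 593 and 646 CPM (0.90 ± 0.08, adjusted p = 2.37e-07). Amotl1, an angiomotin that binds YAP and TAZ, rose from 32.2, 24.5 and 28.3 CPM to 240 and 196 CPM (2.94 ± 0.12). The secreted target Ccn1 had 2.36, 5.53 and 3.51 CPM with DMSO and 23.5 and 23.1 CPM with BOM (2.64 ± 0.37), and the receptor kinase Axl rose by 2.27 ± 0.47. Every BOM library exceeded every DMSO library for these called genes, which the call itself makes likely. Ccn2, the best known companion of Ccn1, was higher (2.54 ± 0.54, adjusted p = 0.00238) but not in every leave-one-out fit (up to 0.083).

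Ccn1 illustrates the promoters of this list. The letters GGAATG, a core recognised by TEAD proteins, or their complement CATTCC, occur 1 time in the 250 bases before its RefSeq start (GRCm38.p6, chr3:145649986-145650235, minus strand), 103 bases before the start and in capitals here:
Ccn1: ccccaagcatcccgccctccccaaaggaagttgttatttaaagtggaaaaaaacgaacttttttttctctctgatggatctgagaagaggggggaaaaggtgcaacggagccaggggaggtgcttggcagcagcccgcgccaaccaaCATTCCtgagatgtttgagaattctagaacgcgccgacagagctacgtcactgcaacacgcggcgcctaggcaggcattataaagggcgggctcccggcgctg
This window holds the letters on either strand in 12.6% of all 32851 promoters. Too few members of the list (72.0% of those tested) had a window for a share over the list to be given.

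**Figure D2:**
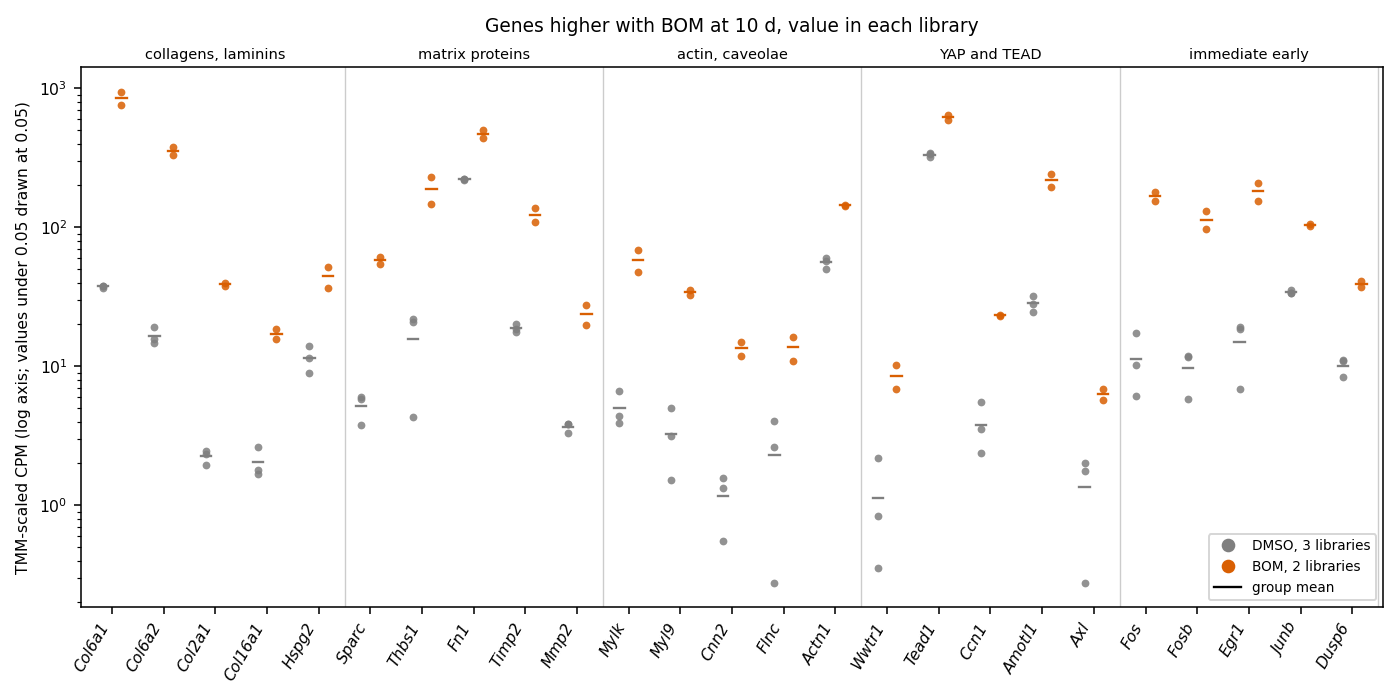
TMM-scaled CPM on a log axis for 25 genes of the matrix, actin, YAP and TEAD, and immediate early groups; each point is 1 library (grey, 3 DMSO; orange, 2 BOM) and bars are group means. The genes were chosen among those higher with BOM, so BOM points lie above the DMSO points for every gene. DMSO replicate 1 is the low grey point for Thbs1 (4.31 CPM).

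Transforming growth factor beta (TGFb) and bone morphogenetic protein (BMP) signalling genes changed at several levels. Of 27 ligands, receptors and antagonists 11 were higher and 5 lower (median 0.30), with 2 lower when BOM replicate 1 and 3 lower when DMSO replicate 3 was left out. The ligand Tgfb2 rose from 46.4, 47.8 and 46.2 CPM to 227 and 206 CPM (2.21 ± 0.13, adjusted p = 2.37e-09), whereas Bmp7 fell from 25.6, 28.7 and 25.6 CPM to 4.80 and 6.01 CPM (-2.29 ± 0.20, adjusted p = 1.86e-07). The BMP receptor Bmpr1b had 2.64, 1.51 and 2.46 CPM with DMSO and 27.1 and 22.98 CPM with BOM (3.49 ± 0.26). Antagonists rose as well: Grem1, which blocks BMPs, by 3.13 ± 0.37 and follistatin (Fst), which blocks activins, by 2.97 ± 0.58. Of 21 SMAD and response genes 11 were higher and 0 lower (median 0.65). The response genes Id1 (70.7, 86.0 and 99.7 CPM, then 226 and 284 CPM; 1.58 ± 0.20) and Id3 (18.9, 36.2 and 42.0 CPM, then 110 and 119 CPM; 1.85 ± 0.29) encode inhibitors of basic helix-loop-helix factors. The inhibitory Smad6 rose by 2.31 ± 0.43 and the receptor-regulated Smad3 by 1.39 ± 0.27.

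In the WNT list 11 of 36 members were higher and 5 lower; 7 were higher without BOM replicate 1, and 2 to 3 were lower without BOM replicate 1, BOM replicate 2 or DMSO replicate 1. Secreted antagonists went in opposite directions: Wif1 rose from 0.694, 1.17 and 0.878 CPM to 16.1 and 15.8 CPM (4.11 ± 0.49) and Sfrp1 fell from 12.6, 8.38 and 9.83 CPM to 1.39 and 0.901 CPM (-3.15 ± 0.41). Axin2, a feedback target of the pathway, rose by 0.78 ± 0.12, while the receptor Lgr5 fell by 1.05 on the log2 scale. Hedgehog genes were higher for 6 of 15 and lower for 1, and 3 were higher without BOM replicate 1. The coreceptor Boc rose from 35.3, 40.9 and 44.2 CPM to 165 and 149 CPM (1.97 ± 0.13), and the ligand Shh was at 0 in all DMSO libraries and at 0.465 and 0.601 CPM with BOM, which gives at least 3.36-fold against a floor of 3 counts over the DMSO group.

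Receptor tyrosine kinase genes were higher for 14 of 47 members and lower for 7. The KIT receptor and its ligand moved apart. Kit fell from 163, 181 and 178 CPM to 58.1 and 54.7 CPM (-1.62 ± 0.11, adjusted p = 1.37e-08), and Kitl, which encodes stem cell factor, rose from 35.8, 32.5 and 33.9 CPM to 130 and 131 CPM (1.94 ± 0.10, adjusted p = 6.28e-10). Igf1r fell by 1.06 on the log2 scale. Vegfa fell (values with the hypoxia genes), whereas its receptor Kdr rose from 9.45, 10.4 and 6.85 CPM to 46.0 and 29.6 CPM (2.08 ± 0.21). The growth factor Fgf1 rose by 2.68 ± 0.22.

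Immediate early genes are induced by cells within minutes of receptor or calcium signals. In the list of these genes and of ERK pathway feedback genes 18 of 48 were higher and 5 lower (median 0.39). Fos (chr12:85473890-85477273, plus strand), a subunit of the AP-1 factor, had 6.11, 10.2 and 17.4 CPM with DMSO and 179 and 154 CPM with BOM, a 15.2-fold difference (3.93 ± 0.28, adjusted p = 2.16e-08). Fosb went from 5.83, 11.9 and 11.6 CPM to 130 and 96.6 CPM (3.56 ± 0.29), and the zinc finger factor Egr1 from 6.81, 18.4 and 19.3 CPM to 210 and 154 CPM (3.65 ± 0.32). Junb rose less (1.60 ± 0.17) and Jun least (0.41 ± 0.10, adjusted p = 0.00915, up to 0.061 when 1 library was left out). The ERK phosphatases diverged: Dusp6 rose by 1.96 ± 0.18, while Dusp4 and Dusp5 fell (-1.06 ± 0.13 and -1.25 ± 0.22), as did the ETS factor Etv1 (-1.08 ± 0.17). In the NF-kappa-B list 2 of 23 were higher and 1 lower, and 0 of these calls were kept in every leave-one-out fit.

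Second messenger genes were higher for 24 of 73 members and lower for 6; 2 or 3 were lower without BOM replicate 1 or BOM replicate 2. Adenylate cyclases, which make cyclic AMP, contributed several: Adcy5 went from 8.75, 9.39 and 8.08 CPM to 73.9 and 75.4 CPM (3.09 ± 0.15, adjusted p = 1.57e-10) and Adcy1 from 142, 142 and 145.4 CPM to 390 and 521 CPM (1.67 ± 0.10). The phosphodiesterase Pde7b, which degrades cyclic AMP, rose too (2.87 ± 0.44). The calcium-dependent factor Nfatc1 rose by 2.04 ± 0.21. Secreted chemokines outside the IFNg response were among the largest rises: Cxcl14 went from 14.4, 14.1 and 12.3 CPM to 245 and 211 CPM (4.06 ± 0.16) and Cxcl12, the ligand of CXCR4, from 0.972, 2.68 and 2.63 CPM to 34.2 and 31.1 CPM (3.998 ± 0.34). Among 23 cytokine receptor and complement genes 7 were higher and 1 lower. The prolactin receptor Prlr rose by 3.73 ± 0.40 and the leukemia inhibitory factor receptor Lifr by 2.41 ± 0.14, and Cd55, a cell surface brake on complement, fell by 2.15 on the log2 scale.

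Tbx2 (chr11:85832551-85841948, plus strand), a T-box repressor, had 7.5, 3.69 and 4.04 CPM with DMSO and 110 and 88.8 CPM with BOM (4.25 ± 0.21, adjusted p = 2.91e-10). Snai2, a SNAG repressor linked to mesenchymal transition, rose from 0.972, 1.006 and 1.58 CPM to 7.74 and 10.8 CPM (2.97 ± 0.36). Runx1 and Runx2 rose by 2.51 ± 0.28 and 2.57 ± 0.35. Falls included Isl1, a LIM homeodomain factor of neuroendocrine cells (20.6, 35.4 and 29.8 CPM, then 6.66 and 8.71 CPM; -1.88 ± 0.24), and the vitamin D receptor Vdr (55.8, 54.5 and 54.2 CPM, then 16.1 and 12.01 CPM; -1.96 ± 0.13). Foxa2 fell by 1.07 on the log2 scale and the lung factor Nkx2-1 rose by 0.65 ± 0.10. By list, homeodomain and POU factors were higher for 4 and lower for 7 of 27 (2 higher without BOM replicate 2, 3 lower without BOM replicate 1). Nuclear receptors were higher for 11 and lower for 4 of 32 (6 and 1 without BOM replicate 1). Among SOX factors 1 of 12 was higher and 3 were lower (0 lower without BOM replicate 1).

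Neuroendocrine markers were called in both directions. Insm1, Syp and Uchl1 did not pass the test (0.06 ± 0.13, 0.13 ± 0.10 and -0.20 ± 0.09). Of 22 tested neuroendocrine markers 8 were higher and 3 lower, with a median of 0.10. Granin and prohormone processing genes were higher for 10 of 18 and lower for 0 (median 0.41). Scg2, which encodes secretogranin II, rose from 16.3, 18.3 and 12.6 CPM to 102 and 102 CPM (2.69 ± 0.14, adjusted p = 3.28e-10). Chga rose by 0.41 ± 0.14 with an adjusted p of 0.0488, which reached 0.52 when 1 library was left out.

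Ion channel families held rises and falls side by side. Of 61 potassium channel genes 11 were higher and 15 lower (median -0.15), with 8 lower without BOM replicate 1. The leak channel Kcnk9 (chr15:72501089-72546340, minus strand) had 1.94, 1.84 and 1.76 CPM with DMSO and 54.8 and 53.01 CPM with BOM (4.85 ± 0.23, adjusted p = 1.57e-10). Kcnh3, a voltage-gated channel of the EAG family, fell from 52.1, 56.2 and 65.1 CPM to 18.4 and 18.8 CPM (-1.63 ± 0.15). The BOM and DMSO libraries did not overlap for either gene. Of 27 voltage-gated sodium and calcium channel genes 6 were higher and 10 lower (6 lower without BOM replicate 2). Within the T-type calcium channels, which open near the resting potential, Cacna1g rose from 2.64, 3.52 and 3.86 CPM to 31.4 and 36.0 CPM (3.35 ± 0.21), and Cacna1h fell from 145.01, 137 and 154 CPM to 57.6 and 60.2 CPM (-1.30 ± 0.09). Per kilobase Cacna1h stayed the more abundant, at 6.03 against 3.33 RPKM with BOM. The cation channel Trpv4, in neither list, which responds to osmotic and mechanical stimuli, went from 0.833, 1.84 and 3.16 CPM to 53.9 and 43.0 CPM (4.68 ± 0.27).

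Neurotransmitter receptors showed the same mixture. Glutamate and GABA receptor genes were higher for 8 of 36 and lower for 6, and 3 were lower without either BOM library. The NMDA receptor subunit Grin2b rose by 2.16 ± 0.28 and the AMPA receptor subunit Gria3 fell from 35.4, 47.6 and 52.5 CPM to 12.5 and 16.5 CPM (-1.63 ± 0.21). Among 33 nicotinic, purinergic, serotonin and related receptors 9 were higher and 3 lower (5 lower with the replicate block); the serotonin-gated channel Htr3a fell from 23.3, 21.8 and 25.1 CPM to 5.73 and 6.91 CPM (-1.88 ± 0.18). Of 36 synaptic vesicle genes 10 were higher and 7 lower (4 lower without BOM replicate 2), and the calcium sensor Syt1 rose from 9.58, 11.1 and 9.30 CPM to 53.3 and 47.8 CPM (2.34 ± 0.15).

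Axon guidance genes were called in both directions more often than the background: 18 of 69 were higher and 20 lower (median -0.09), and 14 in each direction were called in every leave-one-out fit. The semaphorin and VEGF coreceptor Nrp1 rose from 7.22, 7.71 and 9.30 CPM to 95.4 and 80.04 CPM (3.45 ± 0.17, adjusted p = 3.28e-10), and the netrin receptor Unc5c rose by 2.87 ± 0.32. Secreted cues fell: Slit1 went from 183, 178 and 189 CPM to 47.1 and 44.5 CPM (-1.998 ± 0.14, adjusted p = 1.41e-08) and netrin 1 (Ntn1) from 30.4, 29.7 and 40.03 CPM to 6.20 and 11.7 CPM (-1.89 ± 0.24). In neural adhesion 18 of 55 were higher and 10 lower. The contactins diverged, since Cntn1 rose from 52.4, 36.9 and 36.3 CPM to 170 and 131 CPM (1.84 ± 0.17) while Cntn4 fell from 43.5, 41.2 and 38.1 CPM to 4.34 and 7.36 CPM (-2.80 ± 0.21). Clustered protocadherins were higher for 3 of 56 and lower for 8, which is near the background; the genes of a cluster share exons, so counts of single members are uncertain, and the calls fell to 0 higher without BOM replicate 1 and 2 lower without BOM replicate 2 (3 without DMSO replicate 3). The tubulin regulator Stmn2 fell by 1.41 on the log2 scale and the microtubule kinase Dclk1 rose from 28.6, 24.5 and 30.5 CPM to 160 and 155 CPM (2.496 ± 0.10).

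**Figure D3:**
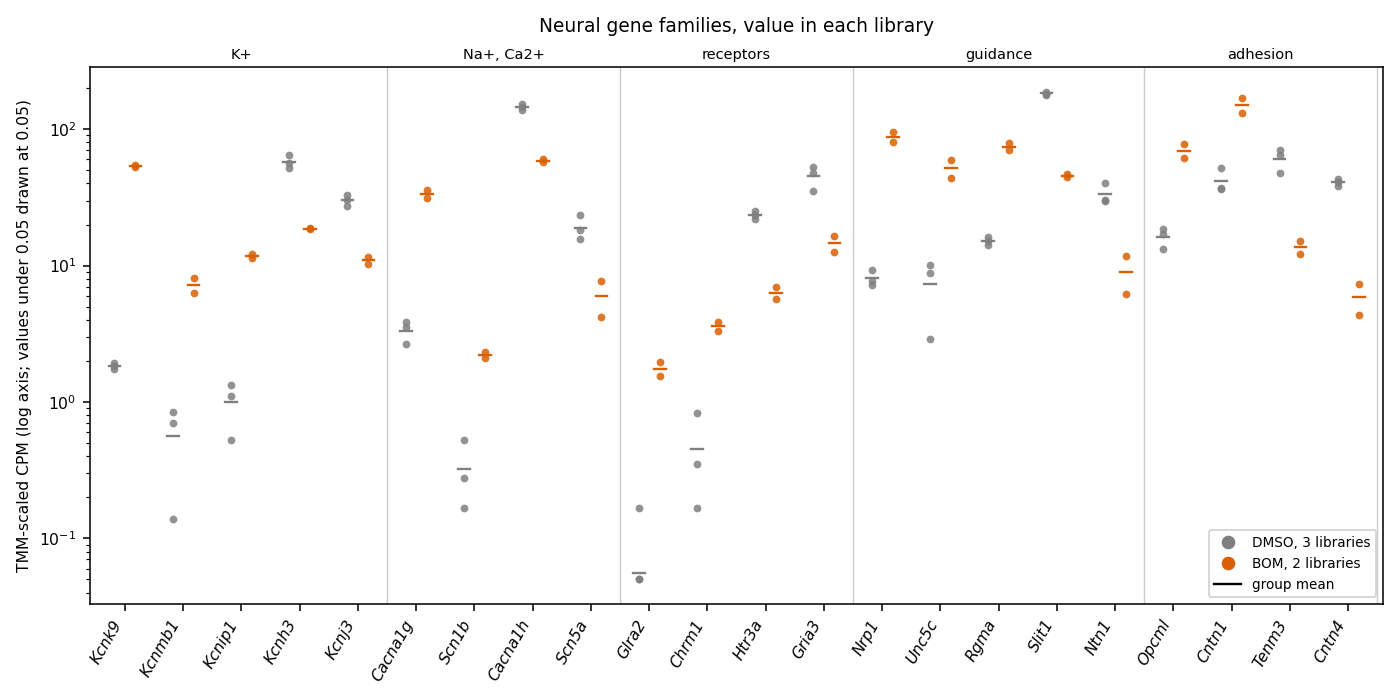
TMM-scaled CPM on a log axis for 22 genes of the ion channel, receptor, guidance and adhesion lists; each point is 1 library (grey, 3 DMSO; orange, 2 BOM), bars are group means and values under 0.05 are drawn at 0.05. Each family holds genes whose BOM points lie above the DMSO points, such as Kcnk9, and genes whose BOM points lie below them, such as Slit1.

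Cell cycle genes changed little as groups. Of 40 G2 and mitosis genes 1 was higher and 2 lower (median 0.01), and the proliferation marker Mki67 did not pass the test (-0.04 ± 0.09). In the G1 and S phase list 0 of 39 were higher and 8 lower (median -0.15), with 3 lower without BOM replicate 1. Cdk6, a G1 kinase, was the exception in size, falling from 36.3, 45.4 and 38.4 CPM to 5.89 and 6.61 CPM (-2.67 ± 0.17, adjusted p = 6.59e-09). Both BOM libraries lay well below all DMSO libraries. In the list of inhibitors of such kinases and tumor suppressors 4 of 24 were higher and 0 lower (median 0.04), among them Cdkn2c (71.4, 72.6 and 75.0 CPM, then 107 and 121 CPM; 0.65 ± 0.09) and Cdkn1b (0.43 ± 0.10). In the MYC and ribosome biogenesis list 1 of 34 was higher and 8 lower, and 2 were lower without BOM replicate 1, 3 without BOM replicate 2, and 5 without DMSO replicate 2 or DMSO replicate 3 with IFNg. The higher one was Myc, with 9.45, 8.88 and 12.8 CPM in DMSO and 25.2 and 29.1 CPM in BOM libraries (1.40 ± 0.25). Mycl, the family member amplified in many SCLC, fell from 4156, 3320 and 3503 CPM to 1303 and 1553 CPM (-1.36 ± 0.13, adjusted p = 5.65e-07) and, at 354 RPKM against 10.0 RPKM for Myc, stayed far more abundant. The BH3-only death gene Bcl2l11 rose by 1.44 ± 0.13, and p53 target genes were higher for 4 of 24 and lower for 3 (2 higher without BOM replicate 2; 1 lower without DMSO replicate 1 and 0 without either BOM library).

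Hypoxia response genes were the list with the largest share of falls. Of 24 tested members 15 were lower and 3 higher (median -0.79), and 9 were lower without BOM replicate 2; 8 were lower in every leave-one-out fit. Glucose transporter 1 (Slc2a1) fell from 41.8, 45.9 and 39.0 CPM to 16.7 and 13.7 CPM (-1.47 ± 0.17, adjusted p = 5.11e-06). Vegfa, the angiogenic factor, fell from 269, 178 and 180 CPM to 85.3 and 68.2 CPM (-1.44 ± 0.27), and Ndrg1 from 65.7, 50.1 and 47.9 CPM to 18.6 and 19.4 CPM (-1.53 ± 0.19). The prolyl hydroxylase Egln3, itself induced by hypoxia, fell by 1.37 on the log2 scale, and the collagen hydroxylase P4ha2 by 2.24. Carbonic anhydrase 9 (Car9) was lower (-3.15 ± 0.89, adjusted p = 0.0176), with 8.61, 5.53 and 2.28 CPM against 0.465 and 0.751 CPM, but its adjusted p reached 0.15 when 1 library was left out. In contrast to the targets, the oxygen-regulated factors were higher: Hif1a by 0.55 ± 0.11 and Epas1 by 2.80 ± 0.48 (0.556, 0.335 and 0.527 CPM, then 3.72 and 3.15 CPM). DMSO replicate 1 was the highest DMSO library for 16 of the 24 genes, against 37.3% of all genes tested, and its part was not tested.

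Slc2a1 and Car9 are shown because both fell and both carry the core ACGTG bound by hypoxia-inducible factors close to their start. The letters, searched on both strands as ACGTG and CACGT, are in capitals in the 250 bases before the RefSeq start, 36 bases before it in Slc2a1 (GRCm38.p6, chr4:119108495-119108744, plus strand) and 18 bases before it in Car9 (chr4:43506776-43507025, plus strand):
Slc2a1: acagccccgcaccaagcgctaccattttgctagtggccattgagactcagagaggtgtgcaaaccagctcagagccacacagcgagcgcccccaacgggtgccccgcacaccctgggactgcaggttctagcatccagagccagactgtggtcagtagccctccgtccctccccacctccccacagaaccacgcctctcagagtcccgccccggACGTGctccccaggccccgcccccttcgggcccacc
Car9: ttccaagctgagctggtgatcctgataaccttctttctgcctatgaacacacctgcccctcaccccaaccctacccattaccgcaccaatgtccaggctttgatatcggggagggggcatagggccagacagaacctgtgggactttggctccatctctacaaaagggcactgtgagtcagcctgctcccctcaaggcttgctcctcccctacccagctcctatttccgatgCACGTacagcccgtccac
Of the 15 lower genes 13 had a window and 11 of these held the letters, as did 18.5% of the 27025 genes with a window. Among all tested members with a window it was 14 of 19, the higher gene Hif1a included. The letters also form part of the E-box CACGTG of MYC-type factors. The list was assembled from known hypoxia targets, so these counts describe how the list was made.

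Glycolysis overlapped with this group. Of 23 genes 8 were lower and 3 higher (median -0.42), and 3 to 4 were lower without DMSO replicate 1, BOM replicate 1 or BOM replicate 2, while 1 was higher without BOM replicate 2 or DMSO replicate 3; with the replicate block 13 were lower. Hexokinase 2 (Hk2) fell from 48.1, 30.7 and 33.9 CPM to 16.4 and 15.2 CPM (-1.25 ± 0.25), and the phosphofructokinase Pfkl from 124.5, 105 and 104 CPM to 51.3 and 55.6 CPM (-1.06 ± 0.14). Aldoc, the brain isoform of aldolase, went the other way, from 16.9, 15.9 and 22.8 CPM to 287 and 213 CPM (3.76 ± 0.15, adjusted p = 2.02e-11).

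Genes of the amino acid response and serine synthesis, which ATF4 activates when amino acids are short, were lower for 14 of 30 and higher for 0 (median -0.68). This count rested on single libraries: 6 were lower without DMSO replicate 1, 5 without BOM replicate 1 and 4 without BOM replicate 2, whereas 22 were lower with the replicate number as a block. DMSO replicate 1 was the highest DMSO library for 28 of the 30 genes. Asparagine synthetase (Asns) shows it, with 322 CPM in that library, 192 and 156 CPM in the other DMSO libraries, and 105 and 97.2 CPM with BOM (-1.14 ± 0.25, adjusted p = 0.00343, up to 0.051 when 1 library was left out). Ddit4, an inhibitor of mTORC1 signalling, fell from 184, 112 and 104 CPM to 57.3 and 56.2 CPM (-1.24 ± 0.23) and kept its call in every fit. The arginine transporter Slc7a1 fell from 542, 368 and 316 CPM to 232 and 230 CPM (-0.83 ± 0.17). Atf4 itself did not pass the test (-0.33 ± 0.18). The Asns promoter, whose ATF4 element is well known, is shown for the 250 bases before the RefSeq start (GRCm38.p6, chr6:7693210-7693459, minus strand), with the letters TGATGNAA in capitals 23 bases before the start:
Asns: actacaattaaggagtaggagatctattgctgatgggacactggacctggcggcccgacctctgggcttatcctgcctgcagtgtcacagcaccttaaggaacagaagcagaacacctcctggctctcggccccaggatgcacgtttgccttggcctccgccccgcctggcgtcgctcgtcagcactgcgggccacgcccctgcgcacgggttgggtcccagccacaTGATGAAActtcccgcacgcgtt
On either strand these letters (TTNCATCA on the other) occur in this window in 3.91% of the 27025 genes, and in 3 of the 13 lower genes of the list that had a window. Among all tested members with a window it was 7 of 27. The list holds genes known to respond to ATF4, so these counts describe how the list was made.

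Other metabolic lists moved less. Nuclear-encoded respiratory chain genes were higher for 16 of 73 and lower for 0 (median 0.24), but all by less than 2-fold, with 3 and 4 higher after dropping BOM replicate 2 and BOM replicate 1, 10 and 8 after dropping DMSO replicate 1 and DMSO replicate 3, and 28 higher with library size as the only scaling. Only Uqcrc2, a complex III subunit, was called in every leave-one-out fit (0.49 ± 0.11, adjusted p = 0.00242). Lysosome and autophagy genes were higher for 12 of 42 and lower for 0 (median 0.27), and 7 were higher without either BOM library; Ctsd, a lysosomal protease, rose from 41.7, 47.3 and 47.9 CPM to 86.3 and 77.3 CPM (0.85 ± 0.14). Iron storage and uptake diverged, with ferritin heavy chain (Fth1) rising from 69.4, 64.7 and 56.9 CPM to 122 and 132 CPM (0.997 ± 0.10) and the transferrin receptor Tfrc falling from 326, 413 and 389 CPM to 259 and 248 CPM (-0.57 ± 0.10). The small heat shock proteins Cryab (1.88 ± 0.15) and Hspb8 (1.78 ± 0.18) rose. Cholesterol genes were near the background, with 2 of 30 higher and 2 lower.

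**Figure D4:**
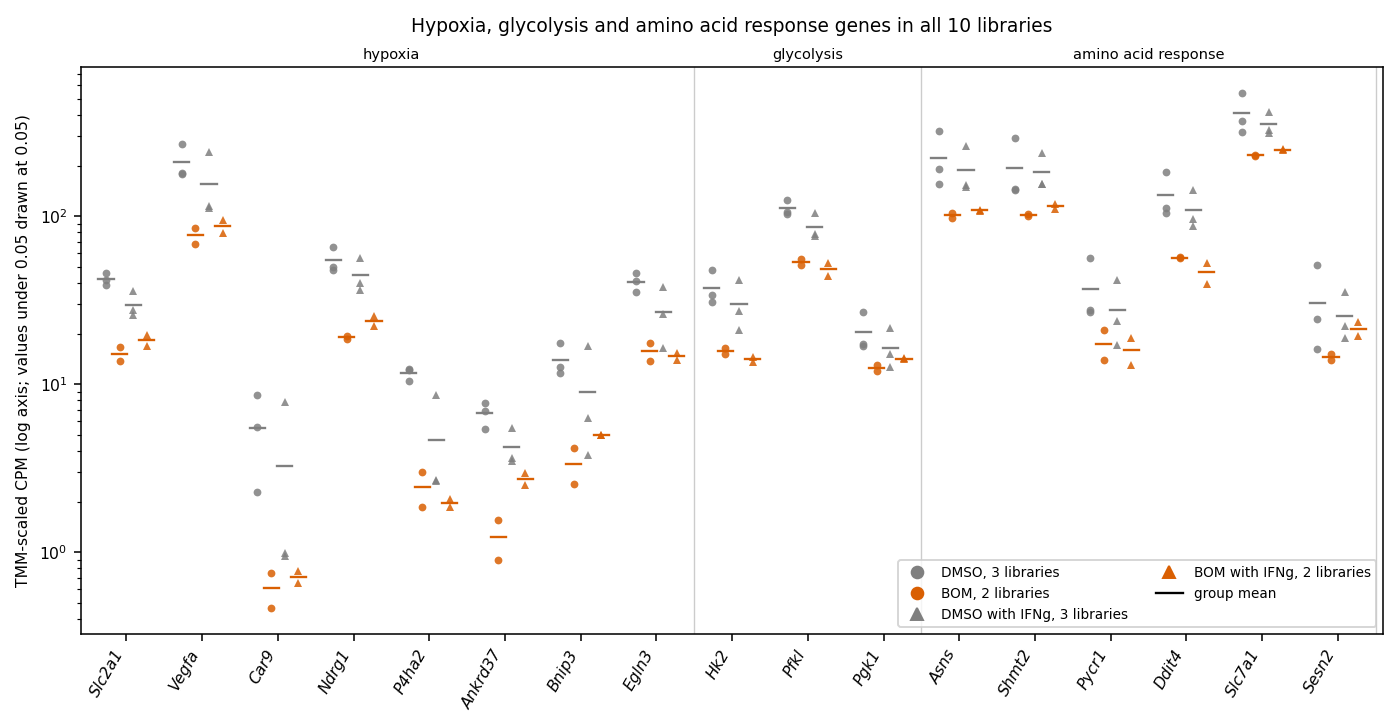
TMM-scaled CPM on a log axis for 17 hypoxia, glycolysis and amino acid response genes in all 10 libraries: circles without and triangles with IFNg, grey DMSO and orange BOM, bars for group means. The 17 genes were chosen among those lower with BOM, so without IFNg the BOM circles lie below the DMSO circles for all of them. List members that rose, such as Hif1a, Epas1 and Aldoc, are not shown. The highest grey circle of Asns (322 CPM) is DMSO replicate 1.

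Histone lysine methyltransferases and demethylases were lower for 13 of 63 and higher for 2 (median -0.16), with 2 lower without BOM replicate 1 and 7 without BOM replicate 2. Jarid2, a PRC2 cofactor, and Kdm3a, a hypoxia-induced H3K9 demethylase, fell by 0.70 and 0.75 on the log2 scale. Among remodelers, deacetylases and DNA methylation genes 10 of 74 were higher and 13 lower (8 lower without DMSO replicate 3, 3 without BOM replicate 1). Chd3, an ATPase of the NuRD complex, fell from 199, 200 and 209 CPM to 61.6 and 66.7 CPM (-1.66 ± 0.10, adjusted p = 1.52e-09), and Smarca2, an ATPase of the BAF complex, rose from 57.1, 41.1 and 42.0 CPM to 135 and 138 CPM (1.54 ± 0.12). In the list of LSD1 and CoREST complex members 0 of 19 were higher and 5 lower, with 2 lower without BOM replicate 1 and 3 without BOM replicate 2, DMSO replicate 2 or DMSO replicate 3. Its member Rcor2, a CoREST paralog, fell from 110, 119 and 112 CPM to 37.9 and 48.2 CPM (-1.40 ± 0.14).

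Of 9 tested airway secretory genes 3 were higher and 0 lower, with a median of -0.10 over the list. The third higher gene was Hp, which encodes haptoglobin (3.25 ± 0.80). Hp was near the floor, with 0.139, 0 and 0.351 CPM with DMSO and 1.70 and 1.65 CPM with BOM. It was not called with IFNg (0.48 ± 0.68). Bpifa1 and Bpifb1, the other higher genes, belong to 1 family of secreted airway proteins on chromosome 2. Reads of related members can be hard to assign. Bpifa1 had 1.53, 2.51 and 2.63 CPM with DMSO and 36.2 and 25.1 CPM with BOM (3.80 ± 0.29), and Bpifb1 had 10.1, 9.89 and 14.7 CPM with DMSO and 452 and 276 CPM with BOM (4.98 ± 0.28). Summed over the 29 genes of the list the level was 28.2 to 44.3 CPM with DMSO and 320 to 511 CPM with BOM, most of it from Bpifb1, while Scgb3a2 and Cyp2f2, defining genes of club cells, had no count in any library. The glial filament gene Gfap rose from 4.86, 4.53 and 7.02 CPM to 30.8 and 21.02 CPM (2.25 ± 0.23).

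Beyond the lists, the largest rises included Mir100hg, the long noncoding host RNA of microRNAs, from 6.39, 7.04 and 5.44 CPM to 234.3 and 134 CPM (4.87 ± 0.25); its microRNAs were not measured. Prmt8, a neuronal arginine methyltransferase at the plasma membrane, rose from 1.11, 1.006 and 1.05 CPM to 31.1 and 25.1 CPM (4.71 ± 0.26). Cubn, an endocytic receptor, and the secreted chaperone clusterin (Clu) rose by 4.001 ± 0.23 and 3.99 ± 0.32. The largest falls outside the lists included Hepacam2, from 46.7, 49.1 and 55.3 CPM to 6.66 and 9.16 CPM (-2.66 ± 0.18), the actin bundler Espn (-2.59 ± 0.31) and the kinase Mapk13 (-2.29 ± 0.35). The neurotrophin receptor Ngfr, 1 of 5 tested basal cell markers of which 2 others rose (Dapl1 by 4.04 ± 0.56 and Perp by 1.55 ± 0.39), fell from 14.6, 12.6 and 12.8 CPM to 2.17 and 2.25 CPM (-2.58 ± 0.28). Perp lost its call in at least 1 leave-one-out fit. Dapl1 was low, with 0.278, 0.503 and 0.176 CPM with DMSO and 7.12 and 3.9 CPM with BOM. In absolute terms the atypical cadherin Fat1, with 577, 622 and 614 CPM in DMSO and 1628 and 1712 CPM in BOM libraries (1.47 ± 0.11), was among the largest gains, and the long noncoding RNA Miat (637, 802 and 888 CPM, then 312 and 358 CPM; -1.21 ± 0.14) among the largest losses. By gene type, 1768 of 13317 protein-coding genes were higher and 1172 lower, and 68 of 1816 long noncoding RNAs were higher and 82 lower.

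The other 5 libraries of the table, BOM against DMSO with IFNg, share no library with this comparison, though both share 1 estimate of the spread. There 13% of the genes tested were called higher and 10.1% lower with BOM. Of the 1837 genes higher without IFNg, 1459 (79.4%) were also called higher with it, which is 73.7% of the 1979 higher calls there. For the lower genes it was 840 of 1257 (66.8%), or 54.6% of 1539. In each set 1 gene was called the opposite way: Cdc20, an activator of the anaphase ubiquitin ligase (0.34 without and -0.32 with IFNg), and H2-T23 (-1.20 and 0.54). Col6a1 (4.50 and 4.34), Kcnk9 (4.85 and 4.74), Fos (3.93 and 3.78) and Cdk6 (-2.67 and -2.73) had log2 fold changes of nearly equal size in both arms.

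Some lists had fewer calls with IFNg. Hypoxia genes were lower for 6 of 24 (median -0.25, against -0.79), amino acid response genes for 5 of 30 (median -0.28, against -0.68), and respiratory chain genes were higher for 2 of 73 (median -0.01, against 0.24). Ankrd37, a hypoxia-induced gene, had a log2 fold change of -2.44 without and -0.64 with IFNg, and Akna, an AT-hook protein, of -2.66 and -0.51. G2 and mitosis genes went the other way, with 2 of 40 lower without and 21 lower with IFNg (median 0.01 and -0.30). Interferon response genes also had more calls with IFNg. Of 44 tested, 12 were higher and 1 lower without IFNg (median 0.51), with 7 higher when DMSO replicate 2 was left out. With IFNg 33 were higher and 0 lower with BOM (median 0.80). When the difference between the arms was tested gene by gene, edgeR called 0 genes, the smallest adjusted p being 0.127, while 725 genes had p under 0.05 before adjustment. By DESeq2 13 genes were called, by limma voom 0, and by edgeR with the replicate number as a block 10. These differences between lists are therefore descriptions.

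**Figure D5:**
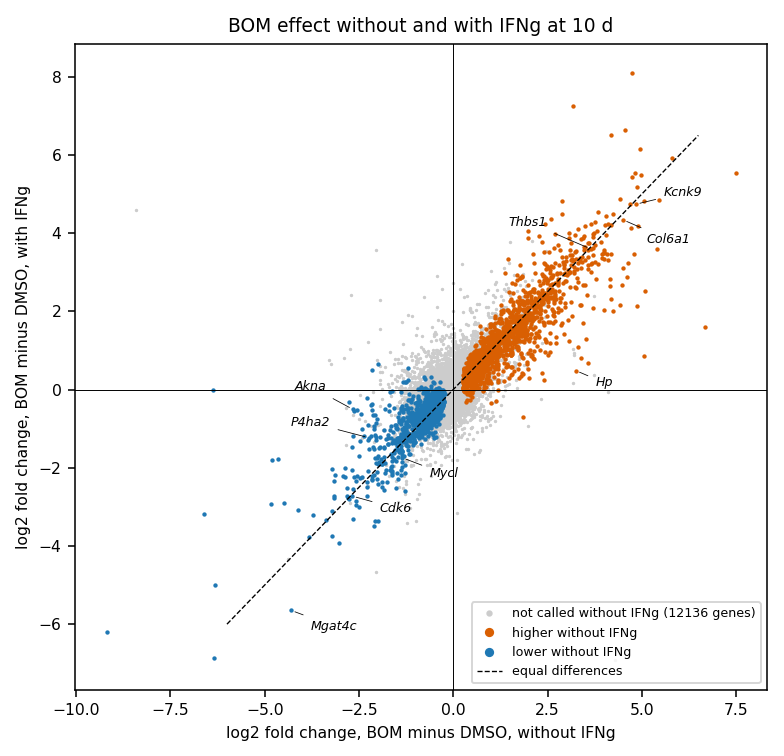
Log2 fold change of BOM minus DMSO without IFNg (horizontal) and with IFNg (vertical) for 15230 genes; orange and blue are genes called higher and lower without IFNg, grey the rest, and the dashed line marks equal values. Most called genes lie near the line, while Akna (-2.66 and -0.51) and Hp lie off it.

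At 96 h in the line RP-48, where each condition had 1 library in a table counted separately, the genes pointed mostly the same way, without a replicate check. Of 861 genes that rose at least 2-fold at 10 d and were measured there, 703 were higher with BOM, with a median log2 difference of 0.55, and 237 of 312 genes that fell at least 2-fold were lower (median -0.40). Over all genes 7573 of 15120 were higher. The sizes were smaller, as for Fos (1.45 at 96 h) and Adcy5 (1.21). Genes chosen for a large difference at 10 d are likely to have smaller values elsewhere, and line, time and measure also differed. Some lead genes did not show a rise of such size. The 96 h difference was -0.42 for Col6a2 and -0.97 for Col2a1, which had only 0.883 and 0.993 CPM with DMSO there. It was 0.05 for Timp2 and -0.15 for Bpifb1, which had 22.2 CPM with DMSO at 96 h.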

How the data were processed

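RNA sequencing counts of 10 libraries of the line RP-48OVA-LLO190 at 10 d were used. The authors deposited raw read counts per gene with gene lengths; the submitters' processing notes name bcl2fastq, FastQC 0.11.9, STAR 2.7, featureCounts of Subread 2.0 and the mouse build mm10. The annotation release is not given in the sources used here, and 98.23% of the gene identifiers were found in GENCODE M21. Total counts were 5896627 to 9044398 per library, which with 2 or 3 libraries per group limits precision for low genes. The flank tumor table was not used here, and 1 marker gene is not reported here.

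In R 4.3.3, genes passing filterByExpr (15230 of 30351) were scaled with TMM, and edgeR 4.0.16 quasi-likelihood tests were fitted over the 4 groups, with 6 residual degrees of freedom and a biological coefficient of variation of 0.104. A call is a Benjamini-Hochberg adjusted p under 0.05 over all genes tested. CPM values are scaled by TMM, RPKM use the deposited lengths, and log2 CPM has a prior count of 2. Line RP-48 at 96 h is the difference of log2 CPM of 2 libraries from a table counted separately. The script was tested on simulated data. Named genes are the 15 largest rises and falls whose groups did not overlap (log2 CPM averaging 2 or more), 4 called members of each list by p, chief neuroendocrine markers with Kdm1a, and the largest CPM differences. Every other gene named in the text, such as Thbs1, Fn1, Vim, Wwtr1, Ccn1, Car9, Hif1a and Epas1, was chosen after its values were seen. The comparison, its members and its lists were chosen with earlier results of these data known. Alternatives were DESeq2 1.42.0, voom of limma 3.58.1, other scalings and filters, a replicate block and leaving out each library. Replicate numbers of the labels were checked as pairs by residual correlation. DMSO libraries without and with IFNg had 0.501, 0.153 and 0.127 for the same number, all over 0.1. However, DMSO replicate 2 had 0.192 with replicate 3 of the IFNg arm, and DMSO replicate 3 had 0.3 with replicate 2 of that arm. BOM libraries without and with IFNg had 0.26. With 2 libraries in each BOM group the pairs must give the same value, so this is 1 value. BOM and DMSO libraries without IFNg share only 2 numbers, with 0.0794 and 0.0438. The numbers thus carry some shared structure between the arms, clearest for DMSO replicate 1, and block values stand beside the counts they move. Promoter windows are the 250 bases before RefSeq starts (GRCm38.p6). Libraries were made with the NEBNext Ultra RNA kit, per the labels' protocols, which does not mark strand, so overlapping and antisense genes cannot be told apart.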

Additional observations from a re-analysis of the deposited data

How the results depend on the processing

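Over the 10 leave-one-out fits, 1268 to 1951 genes were higher and 590 to 1279 lower (590 without BOM replicate 1, 755 without BOM replicate 2), 702 to 903 rose and 242 to 321 fell at least 2-fold, and with IFNg 1285 to 2097 were higher and 810 to 1632 lower (1285 and 810 without BOM replicate 2 with IFNg). Where 1 BOM library was left, it was assumed to vary like the other groups. The difference between the arms, with 0 calls by edgeR, had 13 with DESeq2, 67 with no filter and 0 to 1 over the leave-one-out fits; the cause was not tested. With library size as the only scaling 2208 genes were higher and 909 lower, against 1837 and 1257 with TMM. When the counts of Gm26917 and Gm42418 were removed, 1877 genes were higher and 1189 lower.

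With the replicate block, 1952 genes were higher and 1431 lower (890 and 336 at least 2-fold), 2073 and 1704 with IFNg, and 10 for the difference between the arms. Besides that difference and the lower calls of the amino acid response, glycolysis and nicotinic receptor lists given in the text, the block moved only list counts of 2 or fewer by more than 1.5 times, and 1 gene named by the rule lost its call.

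Of the 283 genes named by the rule, 223 kept their direction and call in every alternative run; 41 lost their call without BOM replicate 1 and 34 without BOM replicate 2. Insm1, which was not called, changed sign between the fits without BOM replicate 2 and without BOM replicate 1 (log2 fold change -0.0668, with an edgeR adjusted p of 0.856, to 0.184). Genes near the detection floor, such as Shh, are limited by depth.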
